A study of Mus musculus with 6 samples.

Results

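Hepatic stellate cells are the vitamin A storing mesenchymal cells that lie between hepatocytes and the sinusoidal endothelium. When the liver is injured they lose their retinoid stores, divide in response to platelet-derived growth factor (PDGF), take on smooth muscle-type contractile proteins and lay down collagen as myofibroblasts. The genes described here are 10 markers of these cells, chosen by gene name and found as 10 of the 34745 genes of the table. Acta2, Tagln, Tpm2, Myl9 and Des encode contractile and muscle-type proteins. Reln, Cygb and Hand2 mark stellate cells also at rest, and Pdgfra and Pdgfrb encode the receptors for PDGF. The list was drawn up by name with earlier results of these data known, and all 10 genes passed the filter on low counts.

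Liver RNA was sequenced in 3 libraries labelled Sox9HKO (replicates 9, 10 and 12) and 3 labelled Sox9f/f (replicates 5, 6 and 8), from mice that were all fed an MCD diet for 6 weeks. This diet lacks methionine and choline and brings on an inflamed fatty liver. Sox9f/f denotes a floxed Sox9 gene. The labels do not spell out HKO, and they give no Cre driver, sex or age. Replicate numbers are those in the sample names. No group on a normal diet was analysed here, so nothing below compares the MCD liver with a healthy one. Each library held between 22826962 and 27286864 counts. Sox9, the targeted gene, went against a loss in the tissue as a whole, with 411, 491 and 626 counts in the libraries labelled Sox9HKO and 127, 138 and 143 in those labelled Sox9f/f. Its log2 fold change was 1.73 ± 0.18 (SE), with an adjusted p of 0.083 in edgeR, 0.0107 in edgeR with no filter and 7.88e-12 in DESeq2. The directions below are therefore between libraries by label. Sox9HKO replicate 12 stood apart from the other 5 libraries on the second principal component, at -48.9 against -4.5 to 20.6. Values without it are therefore given beside some of the results, though not all.

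The promoters of 7 of the 10 genes were in the RefSeq table (build GRCm38.p6), namely those of Acta2, Tpm2, Myl9, Des, Reln, Hand2 and Pdgfra. Each window ran from 250 bases before to 50 bases after the transcript start. The CArG box is the site bound by serum response factor (SRF), which drives smooth muscle genes. A strict CArG box was found in 1 of the 7, Myl9, and in 1.63% of all 32817 windows. With 1 G or C allowed in its core of A and T, a search added after the strict one was seen, Acta2 and Myl9 each held a pair, and 9.99% of all windows held at least 1. Acta2 and Myl9 are shown because they were the 2 markers with such a box, and Pdgfra as a marker without one whose groups did not overlap. Capitals mark CArG or CArG-like boxes, and the Pdgfra window holds none. The windows are chr19:34255324-34255623 on the minus strand for Acta2, chr2:156775214-156775513 on the plus strand for Myl9 and chr5:75152001-75152300 on the plus strand for Pdgfra.
Acta2: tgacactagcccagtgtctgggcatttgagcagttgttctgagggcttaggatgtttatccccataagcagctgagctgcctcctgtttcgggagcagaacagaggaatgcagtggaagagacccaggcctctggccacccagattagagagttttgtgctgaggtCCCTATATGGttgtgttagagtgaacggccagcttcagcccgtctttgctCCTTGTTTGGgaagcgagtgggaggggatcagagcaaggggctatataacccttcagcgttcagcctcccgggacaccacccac
Myl9: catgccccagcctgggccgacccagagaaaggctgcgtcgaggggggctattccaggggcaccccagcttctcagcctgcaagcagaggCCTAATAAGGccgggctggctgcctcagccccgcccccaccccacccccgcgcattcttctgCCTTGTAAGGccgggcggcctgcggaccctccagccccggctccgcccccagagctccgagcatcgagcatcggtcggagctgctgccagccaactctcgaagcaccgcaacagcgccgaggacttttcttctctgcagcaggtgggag
Pdgfra: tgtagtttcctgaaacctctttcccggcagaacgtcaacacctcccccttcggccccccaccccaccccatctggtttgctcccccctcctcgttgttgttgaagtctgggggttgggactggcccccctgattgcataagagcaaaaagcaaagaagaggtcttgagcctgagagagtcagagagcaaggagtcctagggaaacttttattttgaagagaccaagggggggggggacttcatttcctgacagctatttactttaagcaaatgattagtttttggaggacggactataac

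In Acta2 the CArG-like boxes began 84 and 34 bases before the start, and in Myl9 161 and 99 bases before it, the first of these being the strict match. These distances are from the RefSeq transcript start, which for Acta2 and Myl9 differs from the start in the gene coordinates given below. The core of the SOX site, ACAAT, was absent from the 7 windows, and 31.0% of all windows held it. TATAAA was also absent from the 7, against 13.6% of all windows. The E-box CANNTG, the kind of site bound by Hand2 and other basic helix-loop-helix factors, was in 7 of 7 windows and in 72.3% of all. All motifs were searched on both strands. A CArG-like box may also be a strict one, and the other motifs were counted independently of overlap.

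**Figure D1:**
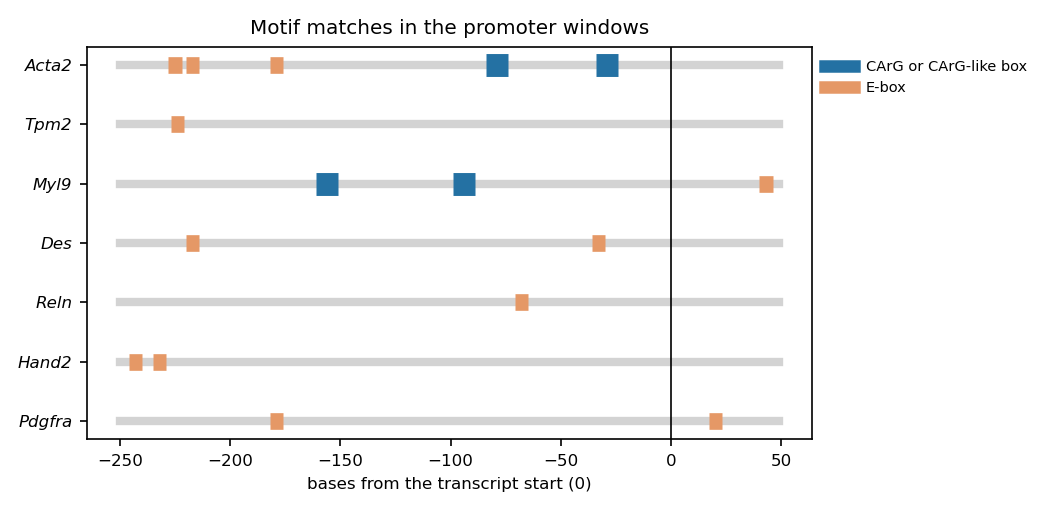
Matches to the CArG or CArG-like box (blue) and the E-box (orange) along the promoter windows of 7 markers, in bases from the transcript start, from 250 before to 50 after. Boxes of the CArG type appear in Acta2 and Myl9 and in none of the other 5 windows, and each of the 7 windows holds at least 1 E-box.

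The first question was whether the markers differed between the labelled genotypes. Cygb, Pdgfrb and Pdgfra were higher in each of the 3 libraries labelled Sox9HKO than in each of the 3 labelled Sox9f/f, by 1.52-fold, 1.56-fold and 1.37-fold. The contractile markers Acta2, Myl9 and Des, at 1.12-fold, 1.08-fold and 1.02-fold, overlapped between the groups, as did Tagln, Tpm2, Reln and Hand2. None of the 10 passed the threshold, an adjusted p under 0.05 in edgeR's quasi-likelihood test with Benjamini-Hochberg adjustment over 14137 genes, where 0% of all tested genes passed. An unadjusted p under 0.05 was found for 3 of the 10, all higher, beside 19.8% of all tested genes, 9.74% higher and 10.1% lower. By DESeq2, Cygb and Pdgfrb passed as higher and 0 of the 10 as lower, beside 2.4% and 2.05% of the genes with an adjusted p there. By limma voom 0 of the 10 passed, and 0% of all tested genes. Groups were without overlap in 3 of the 10, all with Sox9HKO higher, beside 12.2% of all tested genes higher and 14.3% lower. All 10 log2 fold changes were positive, with a median of 0.28, beside a median of 0.00 and 50.5% positive over all tested genes. Because the list was chosen with earlier results known, this shared direction was not tested.

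**Figure D2:**
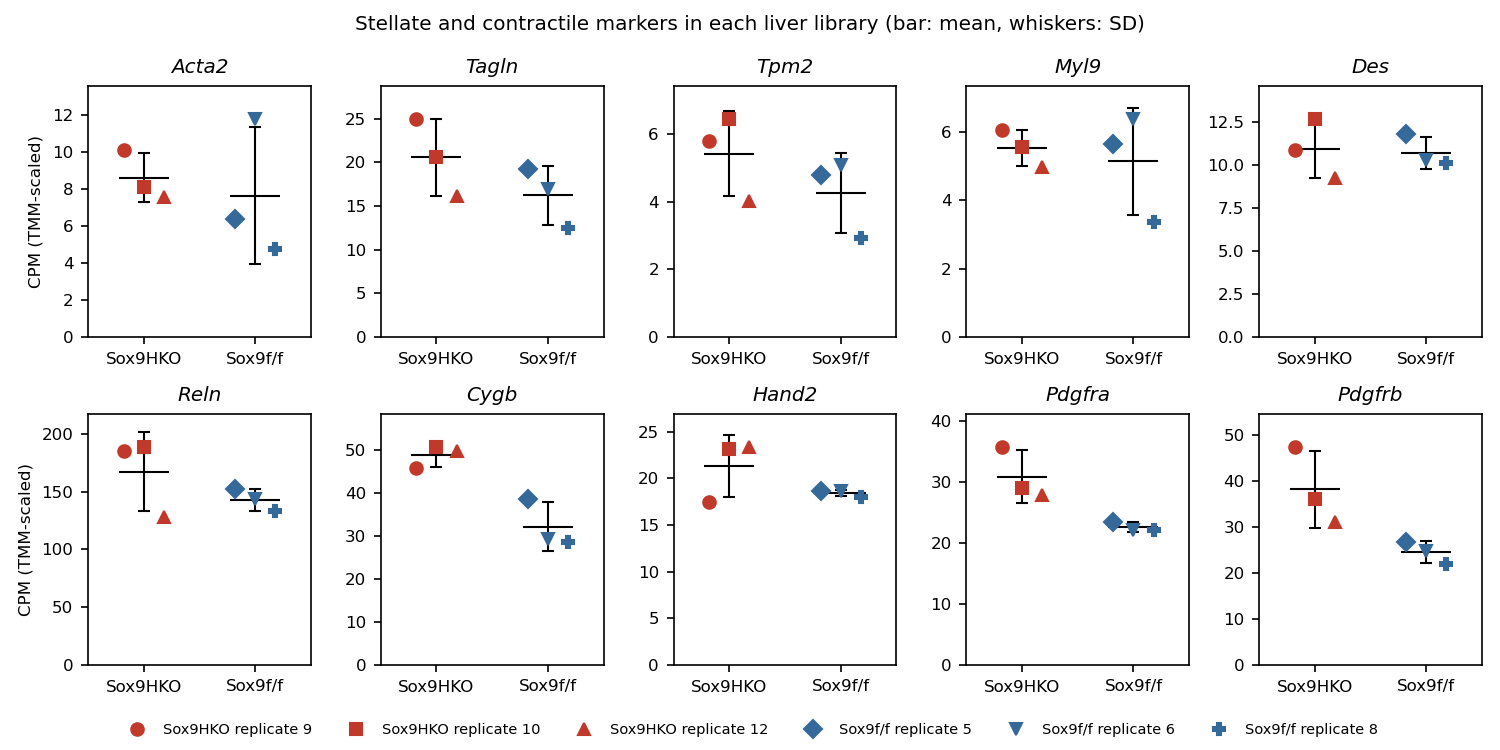
CPM (counts scaled to a common library size) of each marker in each library, with Sox9HKO in red at the left and Sox9f/f in blue at the right of each panel, and the mean and SD of 3 libraries in black. Cygb, Pdgfra and Pdgfrb separate the groups, whereas the Acta2 values of Sox9f/f run from 4.75 to 11.8 CPM and span those of Sox9HKO.

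Smooth muscle alpha-actin, encoded by Acta2, is the standard marker of the myofibroblast and is also abundant in vessel walls. It had 10.1, 8.14 and 7.59 CPM (counts scaled to a common library size) in Sox9HKO replicates 9, 10 and 12. In Sox9f/f replicates 5, 6 and 8 it had 6.39, 11.8 and 4.75 CPM. The highest and the lowest of the 6 libraries were thus both labelled Sox9f/f, and the range was 1.33-fold within Sox9HKO and 2.49-fold within Sox9f/f. The means were 8.62 ± 1.33 CPM in Sox9HKO and 7.65 ± 3.70 CPM in Sox9f/f (SD, n = 3 each), a log2 fold change of 0.17 with a 95% interval of -0.58 to 0.91 (edgeR adjusted p = 0.798). The value rested on single libraries, at 0.65 without Sox9f/f replicate 6 and -0.09 without Sox9f/f replicate 8. Acta2 (ENSMUSG00000035783) spans 34241090 to 34255336 of chromosome 19, minus strand (GRCm38).

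Transgelin (Tagln), an actin-binding protein of smooth muscle also called SM22, had 25.0, 20.6 and 16.2 CPM in the libraries labelled Sox9HKO and 19.2, 17.0 and 12.5 CPM in those labelled Sox9f/f. The groups overlapped, since Sox9HKO replicate 12 lay below Sox9f/f replicates 5 and 6. For Tagln the log2 fold change was 0.34 (95% interval -0.15 to 0.84, edgeR adjusted p = 0.394), with 0.49 without Sox9HKO replicate 12 and 0.18 without either Sox9HKO replicate 9 or Sox9f/f replicate 8. Tagln (chromosome 9, 45929628 to 45936058, minus strand) overlaps Pcsk7 on the opposite strand, which held 7042 counts over the 6 libraries. Whether strand was used in counting is not stated in the sources, so reads of the pair may not have been told apart.

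Beta-tropomyosin (Tpm2) winds along actin filaments and gates their contact with myosin. Its CPM were 5.79, 6.45 and 4.03 in the libraries labelled Sox9HKO and 4.79, 5.08 and 2.92 in those labelled Sox9f/f. Here too Sox9HKO replicate 12 lay among the Sox9f/f values, and the log2 fold change was 0.35 (95% interval -0.30 to 0.99). It was 0.13 without Sox9f/f replicate 8, 0.20 without Sox9HKO replicate 10 and 0.51 without Sox9HKO replicate 12. Myl9, the regulatory myosin light chain of smooth muscle, had 6.05, 5.56 and 4.98 CPM in Sox9HKO against 5.66, 6.39 and 3.37 CPM in Sox9f/f. As with Acta2, Sox9f/f replicate 6 was the highest library and Sox9f/f replicate 8 the lowest. The Myl9 log2 fold change was 0.10 (-0.49 to 0.70), and -0.13 without Sox9f/f replicate 8.

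Desmin (Des), the muscle intermediate filament that marks stellate cells in the rodent liver, had 10.9, 12.7 and 9.26 CPM in Sox9HKO and 11.8, 10.3 and 10.1 CPM in Sox9f/f. These groups were interleaved. For Des a log2 fold change of 0.03 had a 95% interval of -0.35 to 0.42, and its sign turned without Sox9HKO replicate 10 (-0.08) or Sox9f/f replicate 8 (-0.01). In the genome Tpm2 spans 43514711 to 43523765 of chromosome 4 (minus strand), Myl9 156775420 to 156781658 of chromosome 2 (plus strand) and Des 75360329 to 75368579 of chromosome 1 (plus strand).

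The 5 contractile and muscle-type genes shared their low libraries: for each of the 5, replicate 12 was the lowest of Sox9HKO and replicate 8 the lowest of Sox9f/f. The same held for Reln and Pdgfrb among the other markers. In Sox9f/f replicate 8, Acta2, Tagln, Tpm2 and Myl9 were 0.53 to 0.71 below their 6-library means on the log2 scale. Sox9HKO replicate 12 had 0 of the 5 above its mean, whereas Sox9HKO replicates 9 and 10 had 5 of 5. Their summed CPM were 57.9, 53.5 and 42.0 in Sox9HKO and 47.9, 50.5 and 33.6 in Sox9f/f, which overlap. The split of the 10 into contractile and other markers was made by function with the values already known, so no test was made between them.

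**Figure D3:**
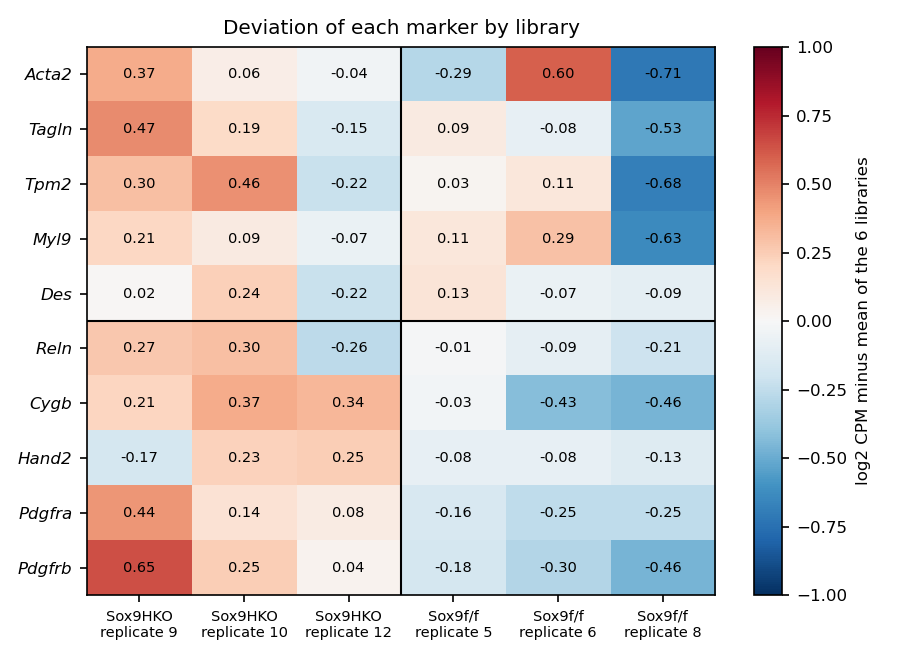
Log2 CPM of each marker in each library minus the mean of the 6 libraries, with Sox9HKO in the left 3 columns and Sox9f/f in the right 3, contractile markers above the line and the others below it. Sox9f/f replicate 8 is the lowest library in 4 of the 5 contractile rows, and Acta2 runs from -0.71 to 0.60 within Sox9f/f.

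Among the stellate markers, cytoglobin had the smallest p. Cytoglobin (Cygb), a globin made by stellate cells and other fibroblasts in the liver, had 45.6, 50.7 and 49.6 CPM in the libraries labelled Sox9HKO and 38.6, 29.2 and 28.5 CPM in those labelled Sox9f/f. The lowest Sox9HKO library lay above the highest Sox9f/f one. For Cygb the log2 fold change was 0.60 ± 0.14 (SE, 95% interval 0.27 to 0.93), with an unadjusted p of 0.00296 and an adjusted p of 0.144 in edgeR, and 0.0212 in DESeq2. It stayed between 0.52 and 0.76 when each library was left out in turn. Cygb (ENSMUSG00000020810) spans 116645595 to 116654313 of chromosome 11, minus strand. The gene Prcd overlaps it on the opposite strand, with 22 counts in the 6 libraries together.

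Reelin (Reln), a large secreted glycoprotein that marks stellate cells in the liver and guides neurons in the brain, had 185, 189 and 128 CPM in Sox9HKO and 152, 144 and 133 CPM in Sox9f/f. Sox9HKO replicates 9 and 10 were the 2 highest libraries and Sox9HKO replicate 12 the lowest of all 6. Reln had a log2 fold change of 0.23 (95% interval -0.15 to 0.60, edgeR adjusted p = 0.461), 0.38 without Sox9HKO replicate 12, 0.13 without Sox9HKO replicate 10, 0.15 without Sox9HKO replicate 9 and -0.01 once trends on GC content and transcript length were taken out. Its longest annotated transcript, at 11699 bases, is the longest among the 10. The gene spans 21884454 to 22344702 of chromosome 5, minus strand.

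Hand2, a transcription factor of the heart and of mesenchyme that marks stellate cells in the liver, had 17.5, 23.1 and 23.4 CPM in Sox9HKO and 18.6, 18.6 and 18 CPM in Sox9f/f. Its Sox9f/f values differed by 1.04-fold at most, the narrowest range of any marker within a group. Sox9HKO replicates 10 and 12 were above all of them and replicate 9 below all of them, a different order from that of the contractile genes. Hand2 had a log2 fold change of 0.21 (95% interval -0.12 to 0.55), with 0.34 without Sox9HKO replicate 9 and 0.14 without Sox9HKO replicate 12. With library-size scaling, which moves the median of all genes by 0.11, and in FPKM the groups of Hand2 did not overlap. Hand2 (chromosome 8, 57320983 to 57324517, plus strand) overlaps the transcript Hand2os1 on the opposite strand, which held 275 counts over the 6 libraries.

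The PDGF receptors are tyrosine kinases through which PDGF drives stellate cells to divide and migrate. Pdgfrb, the receptor of activated stellate cells, had 47.5, 36.0 and 31.1 CPM in the libraries labelled Sox9HKO and 26.8, 24.7 and 22.0 CPM in those labelled Sox9f/f. The means were 38.2 ± 8.43 CPM in Sox9HKO and 24.5 ± 2.43 CPM in Sox9f/f (SD, n = 3 each), with no overlap but with Sox9HKO replicate 9 well above the other libraries. Its log2 fold change was 0.64 ± 0.17 (SE, 95% interval 0.24 to 1.04), with an adjusted p of 0.151 in edgeR and 0.0406 in DESeq2, and it was 0.45 to 0.76 with each library left out. Pdgfrb spans 61045150 to 61085061 of chromosome 18, plus strand.

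Pdgfra, which marks mesenchymal cells including stellate cells and portal fibroblasts, had 35.8, 29.0 and 27.8 CPM in Sox9HKO and 23.5, 22.1 and 22.1 CPM in Sox9f/f. The groups did not overlap, and the Sox9f/f values differed by no more than 1.06-fold. For Pdgfra the log2 fold change was 0.45 ± 0.13 (SE, 95% interval 0.15 to 0.76), with an adjusted p of 0.156 in edgeR and 0.0823 in DESeq2, and 0.26 once those trends were taken out. Pdgfra spans 75152292 to 75198215 of chromosome 5, plus strand. The 95% intervals given here are for single genes and are not widened for the 14137 genes tested.

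**Figure D4:**
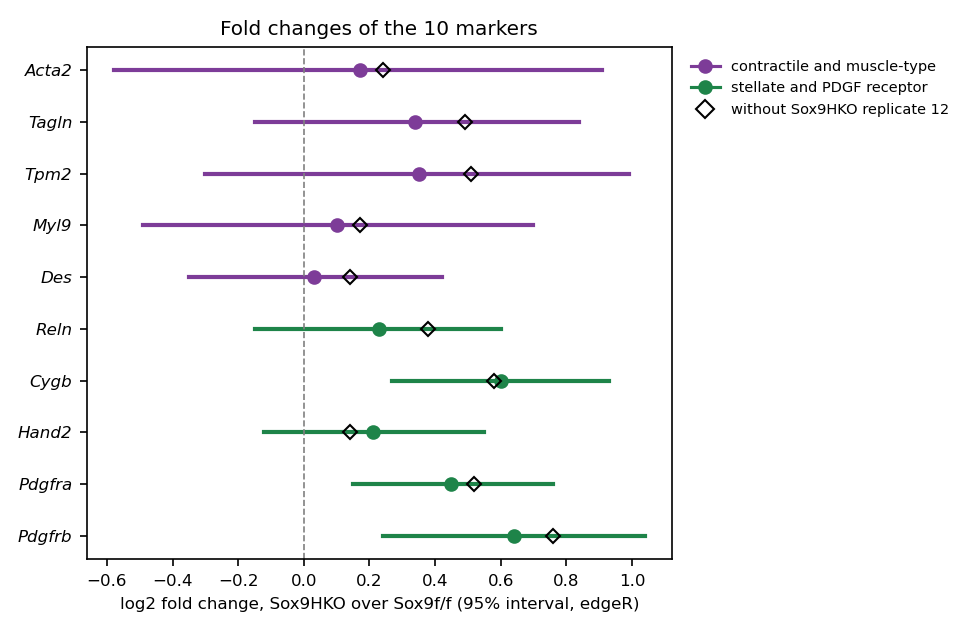
Log2 fold change of each marker (point) with its 95% interval from edgeR, Sox9HKO over Sox9f/f, in purple for contractile and green for other markers, and the value without Sox9HKO replicate 12 (open diamond). The intervals of Cygb, Pdgfra and Pdgfrb lie above 0 and those of the other 7 cross it. None of the 10 passed after adjustment over all tested genes.

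Leaving out Sox9HKO replicate 12, the library that stood apart, raised the number of markers whose groups did not overlap to 6, all with Sox9HKO higher, as in 20.8% of all tested genes. These were Tagln, Tpm2 and Reln besides Cygb, Pdgfra and Pdgfrb. The median log2 fold change of the 10 was then 0.43, and 0 of them passed in edgeR. Liver RNA pools many cell types, so more cells of a type and more RNA per cell cannot be told apart.

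Ratios of markers within a library do not depend on how libraries are scaled. The level of each FPKM ratio depends on the gene lengths the authors divided by, but its difference between the groups does not. Pdgfrb over Pdgfra, in FPKM, was 2.58, 2.42 and 2.18 in Sox9HKO and 2.22, 2.18 and 1.94 in Sox9f/f, a mean log2 difference of 0.18 (exact two-sided permutation test, p = 0.30). The collagen gene Col1a1 over Acta2 was 1.63, 2.50 and 1.36 in Sox9HKO and 1.3, 0.356 and 1.12 in Sox9f/f. Here the groups did not overlap, with a mean log2 difference of 1.14, and p was 0.10 in the exact permutation test, the smallest that 3 against 3 allows. The lowest of these ratios was that of Sox9f/f replicate 6, the library of the highest Acta2. Cygb over Acta2, Acta2 over Pdgfrb and Lrat over Acta2 overlapped between the groups, with exact permutation p of 0.50, 0.60 and 0.40. Adjusted over the 5 ratios, p was 0.50 or more.

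Levels were compared between genes per length, in FPKM as the authors deposited it, averaged over the 6 libraries. Cygb stood highest at 17.5, then Tagln at 11.7, Hand2 at 8.91, Reln at 5.80, Acta2 at 4.58, Pdgfrb at 4.12, Myl9 at 2.53, Des at 2.49, Pdgfra at 1.80 and Tpm2 at 0.874. Over the 6 libraries Cygb (11.9 to 22.3), Tagln (7.69 to 16.8) and Hand2 (7.85 to 10.7) overlapped each other in turn, and so did Reln (4.82 to 7.34), Acta2, Pdgfrb, Myl9, Des and Pdgfra (1.41 to 2.55). The steps from Hand2 to Reln and from Pdgfra to Tpm2 (0.512 to 1.19) were the 2 at which neighbours did not overlap. Compared within each library, Cygb was also always above Tagln, Pdgfrb above Myl9 and Des above Pdgfra. The length by which the authors divided is larger than the longest annotated transcript for Reln (26866 against 11699 bases), Pdgfra (14968 against 6834), Tpm2 (5566 against 2175), Pdgfrb, Des and Myl9. In CPM per kilobase of the longest transcript Reln was second at 13.3, after Cygb at 17.3, and Tpm2 was still last at 2.23.

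Other genes of stellate cells were examined as a list of 20, of which 19 were tested. Positive log2 fold changes were found for 13 and negative ones for 6, with a median of 0.26. In edgeR 0 passed, though 9 had an unadjusted p under 0.05, all higher, and 3 passed as higher in DESeq2. Lrat, which esterifies retinol for storage, had 44.5, 51.2 and 54.0 CPM in Sox9HKO and 29.9, 24.3 and 28.9 CPM in Sox9f/f. Tcf21, a mesenchymal transcription factor, had 10.2, 9.43 and 11.1 CPM in Sox9HKO against 6.21, 6.74 and 5.76 CPM in Sox9f/f, a log2 fold change of 0.71 ± 0.16 (SE). Both genes separated the groups, as Cygb did, and their edgeR adjusted p were 0.139 and 0.140. Sox9HKO replicate 12 was the highest library for both, unlike for Reln and the contractile markers.

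Of 18 further smooth muscle and contractile genes 15 were tested, 11 with positive and 4 with negative log2 fold changes and a median of 0.18. In edgeR 0 passed, as in DESeq2, and an unadjusted p under 0.05 was found for 2, both higher. These 2 were Actn1, an actin crosslinker, at 0.33 ± 0.12, and Cald1, which binds actin and tropomyosin, at 0.65 ± 0.26 (SE). Further smooth muscle genes are named here after their values were seen. Myh11, the smooth muscle myosin heavy chain, had 2.02, 2.87 and 3.01 CPM in Sox9HKO and 2.33, 5.04 and 2.11 CPM in Sox9f/f, highest like Acta2 and Myl9 in Sox9f/f replicate 6. Calponin (Cnn1), another smooth muscle protein, had 1, 2 and 1 counts in Sox9HKO and 7, 12 and 5 counts in Sox9f/f, too few for the filter, with an edgeR adjusted p of 0.193 in a fit with no filter.

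SRF drives many of these contractile genes together with cofactors. Srf itself had 24.9, 24.5 and 26.2 CPM in the libraries labelled Sox9HKO and 33.0, 34.5 and 33.9 CPM in those labelled Sox9f/f. The groups did not overlap, and the log2 fold change of -0.42 ± 0.10 (SE) had an adjusted p of 0.144 in edgeR and 0.0460 in DESeq2. Its cofactor Mkl1, also called MRTF-A, stood at -0.30 ± 0.14, likewise with no overlap. The other cofactor tested, Mkl2 or MRTF-B (chosen with its values in view), was at 0.21 ± 0.12 with overlapping groups. With targets of SRF the list held 8 genes, of which 6 were tested and 5 of these were negative, with a median of -0.28, or -0.09 without Sox9HKO replicate 12. In edgeR 0 passed, while Srf alone had an unadjusted p under 0.05 and alone passed in DESeq2. Egr1, an immediate early gene under SRF that was singled out after its values were seen, had 67.6, 42.3 and 37.5 CPM in Sox9HKO and 30.8, 136 and 53.3 CPM in Sox9f/f, highest in the same Sox9f/f replicate 6 as Acta2. Fos, another such gene also singled out afterwards, had 14.7, 9.80 and 5.41 CPM in Sox9HKO and 3.38, 14.9 and 17.7 CPM in Sox9f/f, highest in Sox9f/f replicate 8, where Acta2 was lowest. The part of that library's state in the Acta2 values was not tested.

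Of the ligands that bind the receptors, Pdgfc and Pdgfd had the smallest p. Pdgfc had 8.73, 8.95 and 8.17 CPM in Sox9HKO and 4.70, 5.77 and 5.44 CPM in Sox9f/f, a log2 fold change of 0.70 ± 0.16 (SE, edgeR adjusted p = 0.144, DESeq2 0.0210). Pdgfd, a ligand of Pdgfrb, had 2.54, 2.17 and 2.72 CPM in Sox9HKO against 1.60, 1.58 and 0.933 CPM in Sox9f/f. Neither overlapped between the groups. In this list of 5, 4 were positive and the median was 0.59. In edgeR 0 passed, 2 had an unadjusted p under 0.05, and 1 passed in DESeq2. The reelin receptor Lrp8 and the adaptor Dab1 were low, at 0.325 to 0.763 and 0.0913 to 1.05 CPM over the 6 libraries. Of the 3 reelin pathway genes 0 passed in edgeR, and Dab1 had an unadjusted p under 0.05. DESeq2 gave Dab1 no adjusted p, and the other two did not pass there. Vldlr, the third, named after its values were seen, had 8.81, 5.31 and 39.3 CPM in Sox9HKO and 11, 12 and 5.88 CPM in Sox9f/f, so that its level in Sox9HKO rested on replicate 12.

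Relatives of the contractile markers were checked because reads of near-identical genes can be split or shared. The closest paralogs of Acta2 were scarce, with Actg2, named with its values in view, at 12, 7 and 5 counts in Sox9HKO and 8, 13 and 7 counts in Sox9f/f. The cytoplasmic actins were abundant, with negative fold changes and no overlap between the groups. Actg1 had 130, 218 and 106 CPM in Sox9HKO and 247, 374 and 247 CPM in Sox9f/f (log2 fold change -0.94 ± 0.28, edgeR adjusted p = 0.162, DESeq2 0.0361), and Actb stood at -0.43 ± 0.15. Of the 7 paralogs tested, 3 were positive and 4 negative with a median of -0.06, or 0.05 without Sox9HKO replicate 12. Among them 0 passed in edgeR, 2 had an unadjusted p under 0.05 and were lower, and 1 passed in DESeq2. Among intermediate filaments, vimentin (Vim) had 82.8, 63.2 and 36.8 CPM in Sox9HKO and 48.7, 25.6 and 26.6 CPM in Sox9f/f. The groups overlap only because Sox9HKO replicate 12 lay below Sox9f/f replicate 5. The Vim log2 fold change was 0.86, and 1.11 without Sox9HKO replicate 12, while synemin (Synm) stood at 0.69 ± 0.36. In that list of 3 tested genes 0 passed in edgeR or DESeq2, and Vim had an unadjusted p under 0.05.

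**Figure D5:**
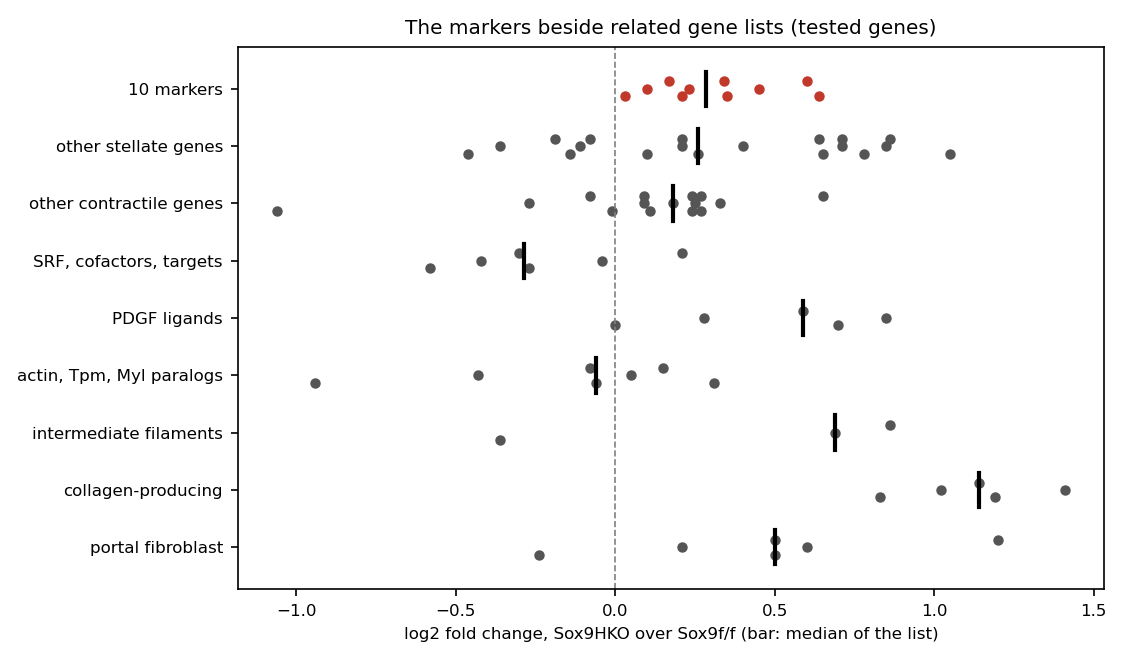
Log2 fold change, Sox9HKO over Sox9f/f, of each tested gene in the list of 10 markers (red) and in related lists (grey), with the median of each list as a bar. The medians are 0.28 for the 10 markers, -0.28 for SRF with its cofactors and targets and 1.14 for the collagen-producing fibroblast genes, and no gene shown passed in edgeR.

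Markers of other cells were read beside these values. Of 5 collagen-producing fibroblast genes, 5 were positive and the median was 1.14. In edgeR 0 of them passed, against 4 in DESeq2 and 4 at an unadjusted p under 0.05. Their summed CPM were 172 to 336 in Sox9HKO and 77.4 to 153 in Sox9f/f, with Col1a1 at 1.41 ± 0.31 and Lox, a collagen crosslinker, at 1.14 ± 0.27. Portal fibroblast genes summed to 39.1 to 48.9 CPM in Sox9HKO and 32.9 to 36.8 CPM in Sox9f/f, with 5 of 6 tested positive and elastin (Eln), the 1 that passed in DESeq2, at 1.20 ± 0.22. Without Eln, a sum taken after its values were seen, the other 6 genes overlapped at 26.5 to 28.6 CPM in Sox9HKO and 25.4 to 29.3 CPM in Sox9f/f. Entpd2, an ectonucleotidase of portal fibroblasts, stood at -0.24 ± 0.12 with Sox9HKO lower in each library. It held most of the sum without Eln, at 16.7, 15.8 and 15.6 CPM in Sox9HKO and 19.1, 19.6 and 18.1 CPM in Sox9f/f. The others tested, named after their values were seen, were positive. Fbln1 stood at 0.50 ± 0.39, Fbln2 at 0.21 ± 0.19, Mfap4 at 0.60 ± 0.39 and Thy1 at 0.50 ± 0.34. The overlap of the sum without Eln is therefore not an overlap of each gene in it. Cholangiocyte genes summed to 209 to 292 CPM in Sox9HKO and 114 to 145 CPM in Sox9f/f, with 6 of 6 positive, 3 at an unadjusted p under 0.05 and 2 passing in DESeq2, Spp1 at 1.45 ± 0.24 and Epcam at 1.28 ± 0.23. Most of that sum was Spp1 and Cdh1, which separated the groups as Epcam did. Krt19 (0.66), Krt7 (0.91) and Cldn4 (0.72) overlapped between the groups. Cdh1 and these keratin and claudin genes were named after their values were seen. Mesothelial genes were low, at 4.90 to 5.48 CPM in Sox9HKO and 2.15 to 3.85 CPM in Sox9f/f, with 4 of 4 tested positive, Wt1 at 0.92 ± 0.38, Gpm6a at 0.80 ± 0.36, Msln at 0 in Sox9f/f replicate 8 and Upk1b at 0 in 3 libraries. Macrophage genes overlapped, at 546 to 1061 CPM in Sox9HKO and 462 to 693 CPM in Sox9f/f, with 7 of 7 positive, and so did those of sinusoidal endothelium, at 317 to 481 CPM in Sox9HKO and 364 to 417 CPM in Sox9f/f, with 3 of 6 positive. Hepatocyte genes summed to 70047 to 77539 CPM in Sox9HKO and 88370 to 94433 CPM in Sox9f/f, with 6 of 6 negative, 2 of them at an unadjusted p under 0.05. Most of that sum was Alb, at 58190, 63893 and 59056 CPM in Sox9HKO and 77845, 78655 and 73644 CPM in Sox9f/f. The median log2 fold change of the list was -0.25. Apoa1 (-0.07) and Cps1 (-0.02), named after their values were seen, differed little and overlapped between the groups. In edgeR 0 genes of these 7 lists passed. The part of these cell types in the marker values was not tested. The defining genes of liver tissue (Alb, Apoa1, Ttr) and of stellate cells (Lrat, Reln, Des, Pdgfrb) were present in every library.

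The 5 genes outside the list whose profile over the 6 libraries lay nearest to the mean profile of the 10 markers were Lsm8, Cnksr3, Ddah1, Ikzf5 and Zfand5. Their root mean square distance was 0.057 to 0.062 in log2 CPM, out of 12710 genes with a mean of at least 1 CPM. The distances of the 10 markers themselves from that mean ran from 0.122 for Tagln to 0.310 for Acta2. The 5 genes were picked as the nearest of 12710, so their smaller distances say nothing about the markers.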

How the data were processed

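The deposited table holds raw counts per gene. Its FPKM columns, per the file headers, are the authors' own. Per the submitters' processing notes StringTie 1.3.0 and HISAT2 2.0.4 were used, with GRCm38.p4 and mm10 as builds and no roles stated. Which tool counted reads, whether by strand, and with which annotation release is not stated in the sources. FPKM equalled count over a fixed gene length and library total to within 0.0048% over 12196 genes.

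Tests on all counts used R 4.3.3 and edgeR 4.0.16 (filterByExpr, TMM, robust quasi-likelihood, no covariates). Of 34745 genes 14137 were tested, and the biological coefficient of variation was 0.216. Each standard error is the fold change divided by the root of its F statistic, and gives the 95% interval. CPM used TMM-scaled library sizes. The labels name separate mice only by number, so p-values measure the spread between these samples. No libraries agreed within sampling noise (chi-square per degree of freedom 32.7 or more). The groups share no replicate numbers.

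The members and lists were chosen with earlier results of these data known. The rule named every member, Sox9, and from each other list the genes called or else the 2 of smallest p, and of the cell type markers at most those 2 and any at 0, with other genes marked as chosen after their values were seen. Likeness was the distance between mean-centred log2 CPM profiles (prior count 2). Alternatives were DESeq2 1.42.0, limma 3.58.1 (voom with sample weights, and log2(FPKM + 0.5) or + 0.1), other scalings and filters, a non-robust fit, removal of trends on transcript length and GC (GENCODE M21, values for 99.7% of tested genes), and each library left out. DESeq2 gave no adjusted p for 558 genes. The fits were tested on simulated data. Promoters are from RefSeq, GRCm38.p6. Protein sequences were not used here.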

Additional observations from a re-analysis of the deposited data

How the results depend on the processing

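Over 17 alternatives the 10 markers gave 170 log2 fold changes, of which 163 kept the direction and the side of the threshold. With DESeq2, Pdgfrb (0.65) and Cygb (0.61) passed, so 2 of the 10 were called. The sign turned for Acta2 (-0.09), Des (-0.01) and Myl9 (-0.13) without Sox9f/f replicate 8, for Des (-0.08) without Sox9HKO replicate 10, and for Reln (-0.01) once the trend on length and GC was removed. The cause was not tested. With each library left out, Acta2 ran from -0.09 to 0.65, Des from -0.08 to 0.14, Myl9 from -0.13 to 0.31, Tagln from 0.18 to 0.49, Tpm2 from 0.13 to 0.51, Reln from 0.13 to 0.38 and Hand2 from 0.14 to 0.34. Leaving out 1 library at a time gave 0 called markers each time, a median log2 fold change of 0.18 to 0.43, and 3 to 6 markers with non-overlapping groups, 6 being without Sox9HKO replicate 12. Over all genes DESeq2 called 605, edgeR with no filter 10, and edgeR with 1 library left out 0 to 3, with 2 without Sox9HKO replicate 12 and 3 without Sox9f/f replicate 5. DESeq2 called 3 of the other stellate genes, 1 of the SRF list, 1 of the PDGF ligands and 1 of the actin, tropomyosin and myosin light chain paralogs, and edgeR called 0 in each. With each library left out edgeR called 0 in these 4 lists and in the contractile, reelin and intermediate filament lists. Calls in the cell type marker lists were not counted with single libraries left out. No paired analysis was possible because the groups share no replicate numbers. With 3 libraries a group, the 95% intervals of Acta2 (-0.58 to 0.91) and Tpm2 (-0.30 to 0.99) are wide, and differences within them are not excluded.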
